A study of Mus musculus with 20 samples.

Results

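The MCM (minichromosome maintenance) family of mouse comprises Mcm2 to Mcm10, and the rows of the RNA count table that carry these 9 gene symbols were taken, out of 23366 genes in all. All 9 were among the 16872 genes with enough reads to be tested. The rule went by symbol, although the family was proposed with earlier results of these data known. RNA was sequenced at 5 stages of the male germ line with 2 biological replicates each, giving 10 RNA libraries. The first 3 were whole testes of pups (postnatal days 1, 3 and 7), followed by leptotene/zygotene and pachytene spermatocytes that were purified from adults aged 70 to 80 days by STA-PUT, in which cells settle through a gradient and part by size. Every animal was wild type C57BL/6J, and no stage carried an allele or a treatment. Leptotene and zygotene are pooled in a single fraction, and the labels give a purity of about 90% or more by microscopy for both fractions.

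MCM2 to MCM7 form the ring-shaped helicase that is loaded on replication origins before S phase and unwinds DNA ahead of the fork. MCM10 is no ring subunit but helps to switch the loaded helicase on. MCM8 and MCM9 form a separate complex that acts in homologous recombination, and mouse mutants of either lose germ cells. In the testis, spermatogonia divide by mitosis, copy their DNA a last time before meiosis, and then pass through leptotene, zygotene and pachytene, when programmed breaks are made and repaired with no DNA replication of the whole genome.

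Gene counts per library ran from 3597360 in leptotene/zygotene replicate 1 to 22181395 in day 3 replicate 1. Levels below are CPM, the usual read count per library size, with library sizes scaled by TMM. Reads not counted to a gene, for whatever reason, made up 63.3% of leptotene/zygotene replicate 1 and 64.5% of pachytene replicate 1. In the other 8 libraries they made up 44.7% to 51.8%. Replicates differed more in the purified cells, and the SD of their log2 difference over genes was 1.17 for leptotene/zygotene and 0.968 for pachytene, against 0.304 to 0.633 for whole testis. The 12 meiotic prophase markers (Sycp1 and others) summed to 2184 and 3183 CPM in leptotene/zygotene and to 1799.7 and 2956 CPM in pachytene, against 271 and 247 CPM in day 7 testis. The 9 Sertoli markers found in the table summed to 123 and 36.1 CPM for leptotene/zygotene and 265 and 198 CPM for pachytene, against 3407 and 3477 CPM in day 7 testis. Spermatogonia markers were lower in the purified cells, as Mcm2 to Mcm6 and Mcm10 were. The 12 of them summed to 115 and 70.6 CPM for leptotene/zygotene and 183 and 114 CPM for pachytene, against 849.9 and 758 CPM at day 7. Among them Neurog3 was at 0 in leptotene/zygotene. Not all somatic sums were near 0, and the 6 peritubular myoid markers summed to 518 and 628 CPM in leptotene/zygotene, against 1002 and 963 CPM at day 7. Of these 6, 5 passed the edgeR test described below as lower and 1 as higher. Their median log2 fold change was -3.32, so the sum does not describe most of them. The 5 erythroid markers, with Hbb-b1 and Hba-a1 at 0, summed higher in leptotene/zygotene at 113 and 104 CPM, against 6.12 and 2.76 CPM. Only 2 of these 5 had enough reads to be tested, and 1 passed as higher. The 12 spermatid markers, which belong to cells after meiosis, summed to 81386 and 81835 CPM in leptotene/zygotene, against 11000.1 and 7069.6 CPM in pachytene and 3.31 and 3.13 CPM in day 7 testis. The earlier fraction thus held more spermatid RNA than the later one, which goes against the order in its label, and none of the 12 markers was at 0 there. The 8 markers of pachytene and later spermatocytes summed to 12277 and 14422 CPM in leptotene/zygotene. They summed to 9252 and 10673 CPM in pachytene, against 50.9 and 44.7 CPM in day 7 testis. Between the 2 fractions, 1 of these 8 passed the edgeR test described below as higher in pachytene and 0 as lower. The part of the spermatid and spermatocyte markers in the results on spermatocytes was not tested. In bulk RNA, fewer cells of a type and less RNA per cell cannot be told apart.

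Promoters are shown first, because E2F factors are known to drive MCM genes at the start of S phase. These cell cycle regulators act with the pocket proteins of the retinoblastoma family. RefSeq promoters of 300 bases (250 before to 50 after the start, GRCm38.p6) were found for 8 of the 9 members; Mcm4 had no entry. The 4 E2F words TTTCCCGC, TTTCGCGC, TTTGCCGC and TTTGGCGC were searched on both strands, where words may overlap. They occurred in 5 of the 8 (Mcm3, Mcm5, Mcm6, Mcm7 and Mcm8), and in 2.605% of 27025 genes with a promoter entry. The CCAAT box (CCAAT) occurred in 8 of 8 against 41.06% of genes, and the GC box (GGGCGG) in 7 of 8 against 38.20%, with Mcm5 as the exception. Capitals mark the E2F words on either strand in the stretches below, which read 5′ to 3′ along the gene. Mcm6 and Mcm5 each hold a pair of overlapping words on opposite strands, and Mcm7 is the member that moved apart from the others. Mcm2, Mcm9 and Mcm10 hold no such word. Whether these words bear on the changes of the members was not tested.
Mcm6 (chr1:128359721-128359830, minus strand, 125 to 16 bases before the start): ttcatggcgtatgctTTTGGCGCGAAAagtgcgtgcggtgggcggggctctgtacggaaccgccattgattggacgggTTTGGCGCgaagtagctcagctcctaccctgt
Mcm5 (chr8:75109344-75109453, plus strand, 165 to 56 bases before the start): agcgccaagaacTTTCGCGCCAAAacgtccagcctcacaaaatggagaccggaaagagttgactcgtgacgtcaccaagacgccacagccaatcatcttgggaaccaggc
Mcm7 (chr5:138171944-138172063, minus strand, 180 to 61 bases before the start): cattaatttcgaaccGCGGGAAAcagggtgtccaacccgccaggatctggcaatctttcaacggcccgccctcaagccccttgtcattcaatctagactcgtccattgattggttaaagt
Mcm2 (chr6:88898781-88898900, minus strand, the 120 bases before the start): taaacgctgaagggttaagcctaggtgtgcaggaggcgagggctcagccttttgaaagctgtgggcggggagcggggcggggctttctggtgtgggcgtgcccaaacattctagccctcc
Mcm9 (chr10:53629958-53630077, minus strand, the 120 bases before the start): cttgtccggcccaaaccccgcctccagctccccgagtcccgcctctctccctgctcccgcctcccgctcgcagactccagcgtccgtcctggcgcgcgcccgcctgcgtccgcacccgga
Mcm3 and Mcm8 hold their E2F words just after the start.
Mcm3 (chr1:20820266-20820295, minus strand, bases 18 to 47 after the start): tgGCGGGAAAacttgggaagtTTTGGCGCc
Mcm8 (chr2:132816158-132816187, plus strand, bases 18 to 47 after the start): taagcagaagcgcgtcatagacGCGCCAAA

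**Figure D1:**
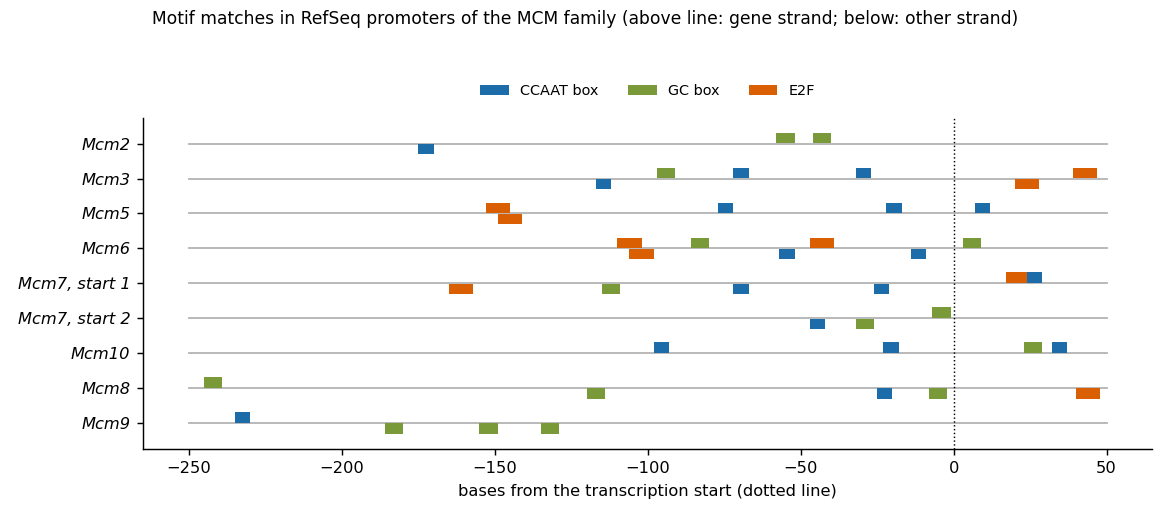
Positions of E2F, CCAAT box and GC box words in the RefSeq promoters of 8 MCM genes, in bases from the transcription start (x axis), with 2 start sites for Mcm7; blocks above a line lie on the gene's strand and blocks below it on the other strand. E2F words lie in 5 of the 8 genes, before the start in Mcm5 and Mcm6, after it in Mcm3 and Mcm8, and on both sides of the first start of Mcm7.

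The testis stages show the family in whole testis after birth, with germ cells and somatic cells together. Which of these cells held the MCM transcripts was not tested. The 5 ring genes other than Mcm7 were at 102 to 204 CPM in every testis library. Mcm2 had 120.1 and 118 CPM in the day 1 libraries, 143 and 146 CPM at day 3, and 198 and 182 CPM at day 7, and no library of one day overlapped another day. Mcm3 was at 105 and 102 CPM, 128 and 135 CPM, and 155 and 140.3 CPM on days 1, 3 and 7. Its days were also apart from each other.
Day 1 testes had 110.2 and 119 CPM of Mcm4, day 3 testes 132 and 142 CPM, and day 7 testes 142 and 129.9 CPM. Mcm5 was at 106 and 102 CPM, 147 and 133 CPM, and 143 and 124 CPM on the same days. For both genes days 3 and 7 overlapped, and both lay above day 1. Mcm6 had 159.8 and 159 CPM at day 1, 204 and 199 CPM at day 3, and 180.0 and 173 CPM at day 7, so that day 3 was the highest stage. Mcm7 was at 74.2 and 76.4 CPM, 91.0 and 84.2 CPM, and 101 and 90.1 CPM, with days 3 and 7 overlapping.

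Mcm10, the activator, had 16.4 and 18.6 CPM at day 1, 26.9 and 30.6 CPM at day 3, and 33.9 and 29.5 CPM at day 7. Days 3 and 7 overlapped and both were above day 1. Mcm8, a subunit of the recombination helicase, was at 12.4 and 15.4 CPM, 16.0 and 16.2 CPM, and 24.1 and 22.5 CPM, and its day 7 libraries lay above all others of the testis. Its partner Mcm9 had 21.6 and 20.4 CPM at day 1, 12.6 and 21.7 CPM at day 3, and 22.7 and 21.5 CPM at day 7. The first day 3 library was the low one, and its replicate was close to the libraries of day 1 and day 7.

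None of the 9 members passed edgeR's quasi-likelihood test (Benjamini-Hochberg adjusted p under 0.05) in any comparison of testis stages. Between days 3 and 1, 0.0% of all genes passed, while 1097 genes had an unadjusted p under 0.05, Mcm10 among them, and DESeq2 called 75 genes, no member among them. Between days 7 and 3, 1.49% of genes passed in edgeR (0.931% higher and 0.563% lower), and 2395 genes had an unadjusted p under 0.05 with no member among them; DESeq2 called 965 genes and no member. Between days 7 and 1 the share was 3.36% (1.08% higher and 2.28% lower), and the unadjusted p was under 0.05 for 3106 genes, Mcm10 and Mcm8 included. All 9 log2 fold changes between days 7 and 1 were positive, with a median of 0.37 against 0.00 for all genes. The largest were those of Mcm10 (0.86 ± 0.24, SE, adjusted p = 0.0872) and Mcm8 (0.74 ± 0.26, adjusted p = 0.155). The 12 spermatogonia markers also summed higher at day 7, at 849.9 and 758 CPM, against 264 and 294 CPM at day 1. Of these markers 5 were called higher, and their median was 1.67. The steps differed: from day 1 to day 3 the median was 0.098 for these markers and 0.28 for the 9 members. From day 3 to day 7 it was 1.98 and 0.14. The 11 proliferation genes had a median of 0.27 between days 7 and 1, with none called. The part of these lists in the change of the family was not tested. The calls of members depended on which libraries were fitted together, a choice that also set the filter, the scaling and the degrees of freedom. With only the 3 testis stages fitted, 4 members passed (Mcm2, Mcm3, Mcm8 and Mcm10), beside 2962 of 15233 genes. With only days 1 and 7 fitted, 7 members passed, all of them higher on day 7. In that fit 6800 of 14927 genes passed, 3228 higher and 3572 lower. DESeq2 called Mcm10 alone among the members, beside 1521 of 17636 genes. Among the genes of the licensing, activation, fork, repair, E2F and proliferation lists described below, those past the test between testis stages were Orc1, the largest subunit of the origin recognition complex, at day 7 over day 1 (1.63 ± 0.36; adjusted p = 0.0426), and Tex11, a meiotic crossover gene, at day 7 over day 1 (3.29 ± 0.60; 0.0260) and over day 3 (2.92 ± 0.58; 0.0461). Both calls over day 1 were lost when 1 library of day 1 or day 7 was left out, whichever it was (adjusted p = 0.136 to 0.333; the Tex11 change was 4.02 without day 1 replicate 2), and Tex11 over day 3 without any 1 of the testis libraries other than day 3 replicate 2, with a change of 2.19 without day 3 replicate 1 and 3.71 without day 3 replicate 2.

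The comparison of leptotene/zygotene spermatocytes with day 7 testis asks how MCM transcripts in cells labelled as meiotic stand beside those of a whole testis. It sets purified adult cells beside a mixed tissue, so age, purification and cell makeup move together with the stage. The transcripts of 5 of the 6 ring subunits fell 6.30-fold to 26.5-fold on mean CPM, those of Mcm7 rose with TMM scaling, and those of the recombination pair fell less or did not pass. With plain library sizes the falls of these 5 ran from -4.05 (Mcm5) to -6.22 (Mcm2) on the log2 scale and Mcm7 no longer rose, as given below. Of the 9 members 8 passed the test, 7 lower and 1 higher, where 78.5% of all genes passed (42.0% lower and 36.5% higher). With TMM 6163 genes were higher and 7082 lower, against 4183 higher and 9928 lower with plain library sizes. With so many genes past the test, a call alone does not set the members apart, and the sizes of their changes are given with each.

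Mcm2 was at 8.76 and 5.61 CPM in leptotene/zygotene, against 198 and 182 CPM in day 7 testis (log2 fold change -4.81 ± 0.50; adjusted p = 1.44e-05). Mcm3 was at 9.24 and 5.21 CPM, against 155 and 140.3 CPM (-4.46 ± 0.38; 4.54e-06). Mcm4 was at 11.7 and 7.82 CPM, against 142 and 129.9 CPM (-3.86 ± 0.46; 3.72e-05). In each of the 3 the lowest day 7 library was more than 10 times the highest leptotene/zygotene library. Mcm6 was at 29.7 and 12.9 CPM in leptotene/zygotene, against 180.0 and 173 CPM at day 7 (-3.12 ± 0.45; 1.39e-04). Without the first leptotene/zygotene library the Mcm6 change was -3.78. Mcm5 was at 20.9 and 21.5 CPM, against 143 and 124 CPM (-2.65 ± 0.26; 1.13e-05), so its replicates agreed closely in the purified cells. These adjusted p-values are from edgeR's quasi-likelihood test, as are those that follow. Mcm10 was at 6.81 and 6.51 CPM in leptotene/zygotene, against 33.9 and 29.5 CPM at day 7 (-2.26 ± 0.27; adjusted p = 4.09e-05). The falls of Mcm2 to Mcm6 and of Mcm10 passed the test under every alternative setting and with any 1 library left out.

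Mcm7 went the other way. It was at 137 and 269 CPM in leptotene/zygotene, against 101 and 90.1 CPM in day 7 testis, and the groups did not overlap (log2 fold change 1.10 ± 0.31; adjusted p = 0.00838). The second leptotene/zygotene library was the high one, and without it the change was 0.50 (adjusted p = 0.0835). The call was also lost without day 7 replicate 1 (adjusted p = 0.0509) or day 7 replicate 2 (0.0900). On library sizes not scaled by TMM, Mcm7 was at 78.4 and 131 CPM in leptotene/zygotene, against 138 and 124 CPM, and its change was -0.32 (adjusted p = 0.286). The median change of all genes was -0.31 with TMM, -1.71 with plain library sizes, -0.70 with upper-quartile factors and 0.01 with median-ratio factors, so that in each of these scalings Mcm7 lay above the median gene and Mcm2 to Mcm6 and Mcm10 below it.

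Mcm8 was at 13.6 and 13.3 CPM in leptotene/zygotene, against 24.1 and 22.5 CPM in day 7 testis (log2 fold change -0.79 ± 0.27; adjusted p = 0.0215). The leptotene/zygotene libraries were both lower. This call was lost with median-ratio factors (-0.46; adjusted p = 0.140), in DESeq2 (0.0765), with only these 2 stages fitted (0.0752), and without day 7 replicate 1 (0.0767) or leptotene/zygotene replicate 2 (0.0579). Mcm9 was at 17.5 and 24.9 CPM in leptotene/zygotene, against 22.7 and 21.5 CPM at day 7, with overlapping groups (-0.03 ± 0.31; adjusted p = 0.926). With plain library sizes its change was -1.44 (adjusted p = 0.00114), beside the -1.71 of the median gene under that scaling.

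**Figure D2:**
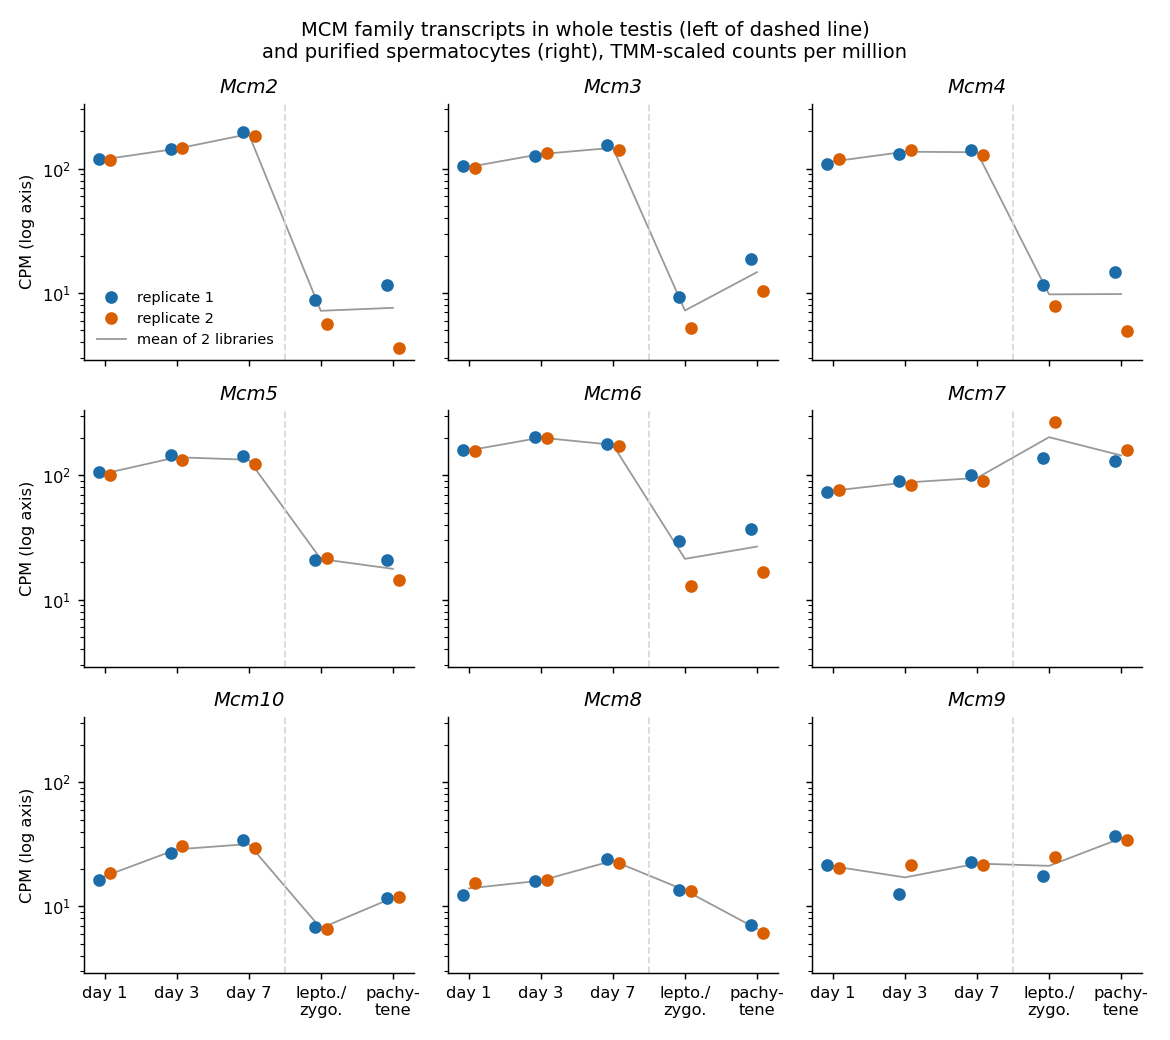
TMM-scaled CPM (log axis) of each MCM gene in each of the 10 libraries, by stage on the x axis, with replicate 1 and replicate 2 as points and the mean of the 2 libraries as a line; a dashed line parts whole testis from purified spermatocytes. Mcm2 to Mcm6 and Mcm10 stand lower in both spermatocyte stages than in any testis library, while Mcm7 reaches 269 CPM in leptotene/zygotene replicate 2.

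Pachytene is next set beside leptotene/zygotene, fractions labelled as successive parts of meiotic prophase. The summed levels of the spermatid and later spermatocyte markers did not follow that order, as given above. Mcm8 fell and no other member passed the test: 1 of 9, where 22.2% of all genes passed (13.2% lower and 9.03% higher). That balance over all genes depended on the scaling: 1524 genes were higher and 2220 lower with TMM, against 3729 higher and 1107 lower with plain library sizes. Mcm8 was at 7.12 and 6.06 CPM in pachytene, against 13.6 and 13.3 CPM in leptotene/zygotene, with no overlap (log2 fold change -1.03 ± 0.29; adjusted p = 0.0304). That call passed only narrowly. It was lost with upper-quartile factors (0.0516), with plain library sizes (-0.47; adjusted p = 0.236), with no filter on low counts (0.0524), with only these 2 stages fitted (0.259), and without any 1 library other than leptotene/zygotene replicate 1 (adjusted p 0.0521 to 0.124).

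Mcm9 was at 36.6 and 34.0 CPM in pachytene, against 17.5 and 24.9 CPM in leptotene/zygotene, with no overlap but without passing the test (0.71 ± 0.32; adjusted p = 0.143). Mcm10 was at 11.6 and 11.8 CPM in pachytene, against 6.81 and 6.51 CPM (0.82 ± 0.28; adjusted p = 0.0596). Mcm3 was at 18.9 and 10.5 CPM, against 9.24 and 5.21 CPM (1.12 ± 0.37; adjusted p = 0.0561). The pachytene libraries of these 3 genes all lay above the leptotene/zygotene ones, and DESeq2 called Mcm3 and Mcm10. The other ring genes overlapped between the fractions. Mcm2 was at 11.6 and 3.58 CPM in pachytene (0.13 ± 0.49) and Mcm4 at 14.6 and 4.96 CPM (0.04 ± 0.45), in each case with the first replicate the higher. Mcm6 was at 36.8 and 16.7 CPM (0.39 ± 0.44), Mcm5 at 21.0 and 14.5 CPM (-0.27 ± 0.26), and Mcm7 at 131 and 159 CPM (-0.49 ± 0.31; adjusted p = 0.292). Without leptotene/zygotene replicate 1, Mcm7 passed as lower in pachytene (-0.90; adjusted p = 0.0195).

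Replicate 1 stood above replicate 2 in both spermatocyte stages for Mcm2, Mcm3, Mcm4 and Mcm6. The ratio of replicate 1 to replicate 2 was 1.56 in leptotene/zygotene and 3.24 in pachytene for Mcm2, 1.77 and 1.81 for Mcm3, 1.49 and 2.96 for Mcm4, and 2.30 and 2.21 for Mcm6. For Mcm7 it was 0.509 and 0.821. The replicate 1 libraries were those with the largest share of reads not counted to a gene and the higher Sertoli sums. The part of either in these differences was not tested.

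Against day 7 testis, pachytene cells had 7 members lower and none higher, where 75.2% of all genes passed (40.1% lower and 35.1% higher). Over all genes 5920 were higher and 6760 lower with TMM, against 4521 higher and 8810 lower with plain library sizes. This comparison shares its day 7 libraries with the one above. Log2 fold changes were -4.69 ± 0.48 for Mcm2, -3.34 ± 0.35 for Mcm3, -3.82 ± 0.45 for Mcm4, -2.92 ± 0.26 for Mcm5 and -2.73 ± 0.44 for Mcm6. Mcm10 changed by -1.44 ± 0.25 and Mcm8 by -1.83 ± 0.28. All 7 passed under every alternative, while the size depended on the pachytene library kept. Without pachytene replicate 1 the change was -5.73 for Mcm2, -4.78 for Mcm4 and -3.41 for Mcm6, and without pachytene replicate 2 it was -4.05 for Mcm2 and -3.23 for Mcm4. Mcm7 (0.60 ± 0.31; adjusted p = 0.0994) and Mcm9 (0.68 ± 0.31; adjusted p = 0.0701) missed the threshold, and both passed as higher with median-ratio factors (adjusted p = 0.0136 for Mcm7 and 0.0133 for Mcm9) and in DESeq2. With plain library sizes neither passed, and the change was -0.22 for Mcm7 and -0.15 for Mcm9.

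**Figure D3:**
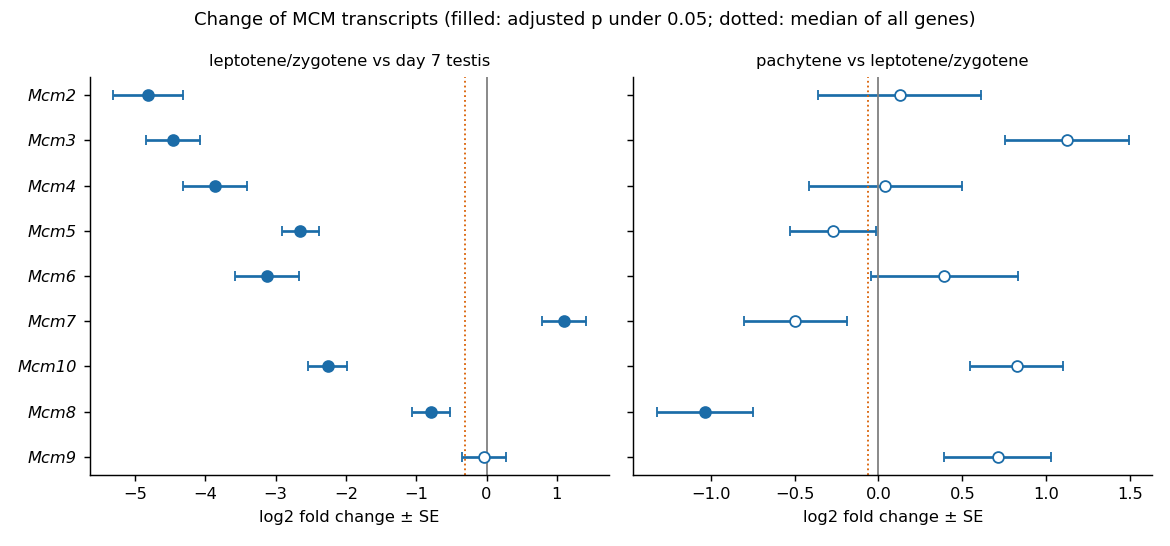
Log2 fold change ± SE from edgeR (x axes) of each MCM gene in leptotene/zygotene over day 7 testis (left) and in pachytene over leptotene/zygotene (right); filled points passed the test, and a dotted line marks the median of all genes. On the left Mcm7 alone lies to the right of zero among the filled points, and on the right Mcm8 is the filled point, at -1.03.

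Ratios of counts within a library do not depend on how libraries are scaled. Mcm7 counts over the summed Mcm2 to Mcm6 counts came to 1.71 and 5.07 for leptotene/zygotene and 1.27 and 3.18 for pachytene, beside 0.111 to 0.127 over the 6 testis libraries. Every spermatocyte library thus had more Mcm7 reads than the other 5 ring genes together, and no testis library did. Summed counts of the replication genes (Mcm2 to Mcm7 and Mcm10) over those of Mcm8 and Mcm9 were 7.20 and 8.61 for leptotene/zygotene and 5.60 and 5.52 for pachytene, against 20.3 and 19.8 at day 7 and 19.3 to 30.5 over all testis libraries. Mcm7 made up 282 of the 461 and 2687 of the 3282 counts of that sum in leptotene/zygotene. Without Mcm7 the ratio was 2.80 and 1.56 for leptotene/zygotene and 2.62 and 1.55 for pachytene, against 18.2 and 17.7 at day 7. Mcm9 over Mcm8 was 5.14 and 5.61 in pachytene, against 1.29 and 1.86 in leptotene/zygotene. In the testis libraries it was 0.784 to 1.73. Mcm10 over Mcm2 to Mcm6 was 0.0848 and 0.123 for leptotene/zygotene and 0.113 and 0.236 for pachytene, against 0.0415 and 0.0394 at day 7. These ratios were not tested, since the members had been chosen with results of these data known.

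**Figure D4:**
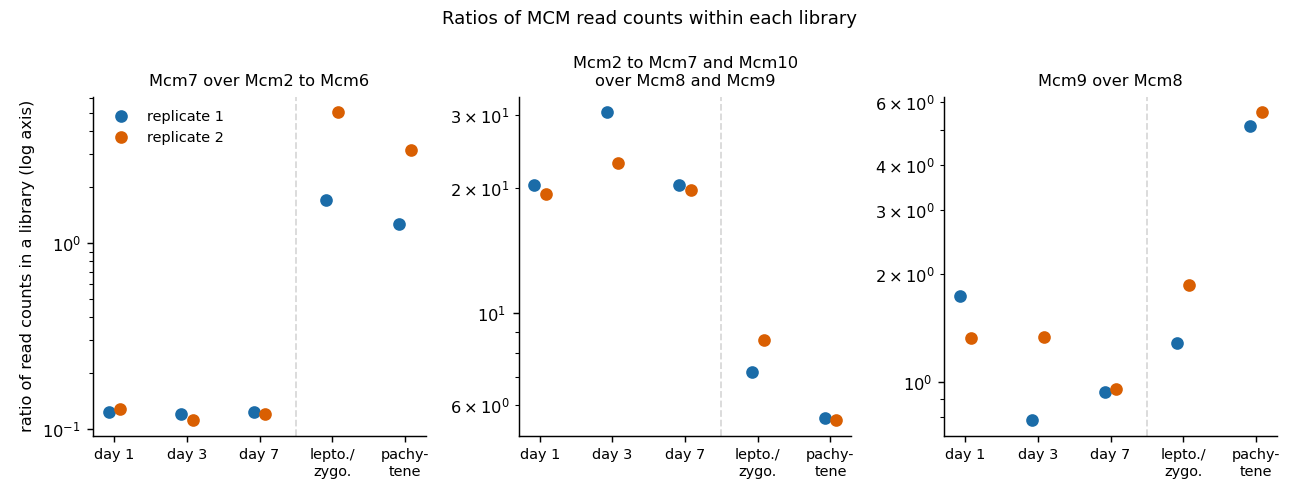
Ratios of read counts within each library (log axes) by stage, for Mcm7 over the sum of Mcm2 to Mcm6 (left), the replication genes over Mcm8 and Mcm9 (middle) and Mcm9 over Mcm8 (right), with a point per replicate. The left ratio is at least 1.27 in spermatocytes and at most 0.127 in testis, and the right one exceeds 5 in pachytene only.

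Levels across the 10 libraries followed each other closely among Mcm2 to Mcm6, with a Pearson r of log2(CPM + 1) between 0.967 and 0.997. Mcm7 ran against them, with r from -0.918 to -0.811. Mcm10 had r from 0.878 to 0.940 with Mcm2 to Mcm6, Mcm8 from 0.655 to 0.780, and Mcm9 from -0.596 to -0.450. Mcm8 and Mcm9, whose proteins work together, had r = -0.65. All points share the split between testis and purified cells, so these values describe that split and carry no test. The mean used next includes Mcm7, although Mcm7 ran against Mcm2 to Mcm6. The genes outside the family most like the mean of Mcm2 to Mcm7 were Bex2 (r = 0.999), Sgol1, which protects centromeric cohesion (0.998), Trmt2b (0.998), Olfml2b (0.998) and Ung, a uracil-DNA glycosylase (0.998), among 11513 genes. The nearest to Mcm10 were Cenph, a kinetochore protein (0.980), Rpa2 (0.977) and Amhr2, the receptor of the Sertoli hormone AMH (0.976). Nearest to Mcm8 were Ppt1 (0.967), Spryd3 (0.966) and Kif1a (0.961), and nearest to Mcm9 were Snrnp200, a spliceosome helicase (0.958), Mkln1 (0.954) and Chd1, a chromatin remodeler (0.946), among 15968 genes.

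The origin licensing list was mostly lower in leptotene/zygotene too. It holds factors that load the MCM ring on origins, together with Mcmbp and the inhibitor Gmnn. Of 10 licensing genes 8 were lower and 1 higher than at day 7, with a median log2 fold change of -1.46, where 42.0% of all genes were lower and 36.5% higher and their median was -0.31. The higher one was Orc5 (0.65 ± 0.24; adjusted p = 0.0293), which turned to -0.74 with plain library sizes and was lost with upper-quartile factors, with no filter, and without any 1 testis library or leptotene/zygotene replicate 2. Cdt1, which brings the ring to the origin, averaged 1.88 CPM in leptotene/zygotene (3 and 23 counts) and 53.4 CPM at day 7 (-4.68 ± 0.36). Mcmbp, a binding partner of MCM proteins (-3.63 ± 0.40), Orc6 (-2.24 ± 0.26) and Orc4 (-1.66 ± 0.26), subunits of the origin recognition complex, and Gmnn, the inhibitor of Cdt1 (-1.61 ± 0.37), fell as well. Cdc6, the other loader, averaged 18.7 CPM in leptotene/zygotene and 23.3 CPM at day 7 and did not pass (adjusted p = 0.322). From leptotene/zygotene to pachytene 4 of the 10 rose and none fell, where 9.03% of all genes rose and 13.2% fell: Gmnn (2.11 ± 0.38), Orc2 (1.42 ± 0.26), Orc3 (1.01 ± 0.30) and Orc5 (0.92 ± 0.24). Cdt1 averaged 2.08 CPM in pachytene, and Cdc6 averaged 18.7 CPM.

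Of 13 genes that turn the loaded ring into an active fork helicase, 5 were lower and 3 higher in leptotene/zygotene than at day 7 (median -0.50), where 42.0% of all genes were lower and 36.5% higher (median -0.31). Neither share of the 13 is above that of all genes. Wdhd1 (-2.84 ± 0.42), the GINS subunit Gins3 (-2.49 ± 0.53) and Cdc7, the kinase that phosphorylates the ring (-2.27 ± 0.32), fell, and Donson, a factor of helicase assembly, rose (2.93 ± 0.26; 238 CPM in leptotene/zygotene and 31.2 CPM at day 7 on average). Without leptotene/zygotene replicate 1 the Wdhd1 change was -3.47. Cdc45, the partner of ring and GINS, averaged 18.3 CPM and 27.4 CPM and did not pass (adjusted p = 0.328). In pachytene Topbp1 (1.94 ± 0.37; 2.54 without leptotene/zygotene replicate 1) and Cdc7 (1.83 ± 0.32) were higher and Recql4 (-1.60 ± 0.39) lower than in leptotene/zygotene, with 10 of 13 not past the test. Of 20 fork synthesis genes, 8 were lower and 4 higher in leptotene/zygotene than at day 7 (median -0.36), where 42.0% of all genes were lower and 36.5% higher (median -0.31), so the share that fell was near the background. The falls were led by Pola1, the catalytic subunit of the priming polymerase (-4.85 ± 0.40). Rpa3 (-3.32 ± 0.60) and Rpa2 (-3.09 ± 0.29), of the complex that coats single strands, and Pold1 (-3.01 ± 0.39) also fell. Without leptotene/zygotene replicate 2 the change was -2.40 for Rpa3 and -3.90 for Pold1. Few reads underlie 2 of these falls, with 4 and 11 counts for Pola1 and 4 and 7 for Rpa3 in leptotene/zygotene. Rpa1, the third subunit of the same complex, was higher, averaging 322 CPM in leptotene/zygotene and 94.6 CPM at day 7 (1.77 ± 0.22), so its 3 subunits did not move in 1 direction. The clamp loader subunits Rfc2 (2.87 ± 0.33) and Rfc1 (1.43 ± 0.24) and the polymerase subunit Pold3 (2.18 ± 0.32) were the other 3 that rose. With plain library sizes Rpa1 (0.39; adjusted p = 0.124) and Rfc1 (0.035; adjusted p = 0.877) no longer passed. Pcna, the sliding clamp, averaged 57.0 CPM in leptotene/zygotene and 49.6 CPM at day 7 and did not pass (adjusted p = 0.461). In pachytene Rpa2 was higher (1.37 ± 0.28) and Fen1, a flap nuclease, lower (-2.56 ± 0.48) than in leptotene/zygotene. The Fen1 change was -3.55 without pachytene replicate 1 and -1.95 without pachytene replicate 2.

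The meiotic break repair genes, among which Mcm8 and Mcm9 act, were mixed. Of 17, 7 were higher and 5 lower in leptotene/zygotene than at day 7 (median 0.40), where 36.5% of all genes were higher and 42.0% lower (median -0.31). Genes were named by size of change, and none of the 5 lower genes was among the 4 largest changes. Psmc3ip, which assists strand invasion (3.59 ± 0.51, and 2.52 without leptotene/zygotene replicate 2), and Msh4, which stabilises crossover intermediates (3.47 ± 0.39), rose. The gene listed as BC030867, now Hrob, which encodes the loader of the MCM8 and MCM9 complex, was at 98.7 and 121 CPM in leptotene/zygotene, against 18.9 and 16.7 CPM at day 7 (2.63 ± 0.28; adjusted p = 1.7e-05). It was at 93.0 and 91.7 CPM in pachytene. The loader was thus higher in leptotene/zygotene, where Mcm8 was lower and Mcm9 did not pass. Meiob, a meiotic partner of RPA, was at 9.73 and 14.5 CPM in leptotene/zygotene, against 0.441 and 0.00 CPM at day 7 (adjusted p = 6.84e-05). Mcmdc2, an MCM-like protein that mouse meiotic recombination needs, was at 14.6 and 15.3 CPM in pachytene, against 4.38 and 3.01 CPM in leptotene/zygotene (2.10 ± 0.43; adjusted p = 0.00887). Its rise in leptotene/zygotene over 1.21 and 1.04 CPM at day 7 (1.61 ± 0.46; adjusted p = 0.00861) was lost with plain library sizes (0.22) and without either day 7 library (adjusted p = 0.0570 without replicate 1 and 0.0865 without replicate 2). Spata22 (2.90 ± 0.48), Mlh3 (1.83 ± 0.33) and Hfm1 (1.55 ± 0.34) were also higher in pachytene than in leptotene/zygotene, and Brca1, of the break repair machinery, was the 1 of the 17 that was lower (-1.19 ± 0.27), a call lost with plain library sizes, with only these 2 stages fitted, and without pachytene replicate 2 (adjusted p = 0.0537).

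Of 13 E2F and pocket protein genes, 8 were lower and 4 higher in leptotene/zygotene than at day 7 (median -2.01), where 42.0% of all genes were lower and 36.5% higher (median -0.31). E2f6 (-4.37 ± 0.79), E2f3 (-4.33 ± 0.63), the E2F partner Tfdp2 (-3.22 ± 0.36) and E2f1 (-2.87 ± 0.30) fell. The falls of the first pair rest on few reads: E2f6 changed by -5.09 and -3.45, and E2f3 by -5.39 and -3.13, without leptotene/zygotene replicate 1 and replicate 2 in turn. The higher ones were the pocket protein gene Rbl2, at 206 and 259 CPM in leptotene/zygotene, against 48.6 and 47.5 CPM at day 7 (2.28 ± 0.26), E2f5 (1.27 ± 0.30), E2f8 (1.01 ± 0.28) and E2f4 (0.70 ± 0.28). With plain library sizes the change was 0.88 for Rbl2, -0.13 for E2f5, -0.39 for E2f8 and -0.70 for E2f4, the last then past the test as lower (adjusted p = 0.0273). The E2f8 call was also lost without day 7 replicate 2 or leptotene/zygotene replicate 2, and that of E2f4 with upper-quartile factors, with no filter, and without any 1 testis library or leptotene/zygotene replicate 2. In pachytene Tfdp1 (2.74 ± 0.33), Rbl1 (1.64 ± 0.22) and E2f7 (1.15 ± 0.29) were higher than in leptotene/zygotene, and Rbl2 (-1.65 ± 0.25) was lower. The proliferation list had 6 of 11 genes lower and 2 higher in leptotene/zygotene (median -1.73), beside the same 42.0% and 36.5% of all genes, with Mki67 at 175 and 62.2 CPM in leptotene/zygotene, against 430.2 and 348 CPM at day 7 (-1.73 ± 0.48; -2.65 without leptotene/zygotene replicate 1). Of the 17 named pathway genes that passed between pachytene and leptotene/zygotene, 12 no longer passed when only these 2 stages were fitted. In that fit 930 of 13609 genes passed. All 17 passed when it took the replicate number as a block (added after the data were seen), where 6927 of 13609 genes passed. That many passing genes do not set the 17 apart, and nothing says that the numbers pair the samples. Orc3, Orc5, Recql4, Rpa2, Mcmdc2, Hfm1 and E2f7 were lost with some library left out.

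**Figure D5:**
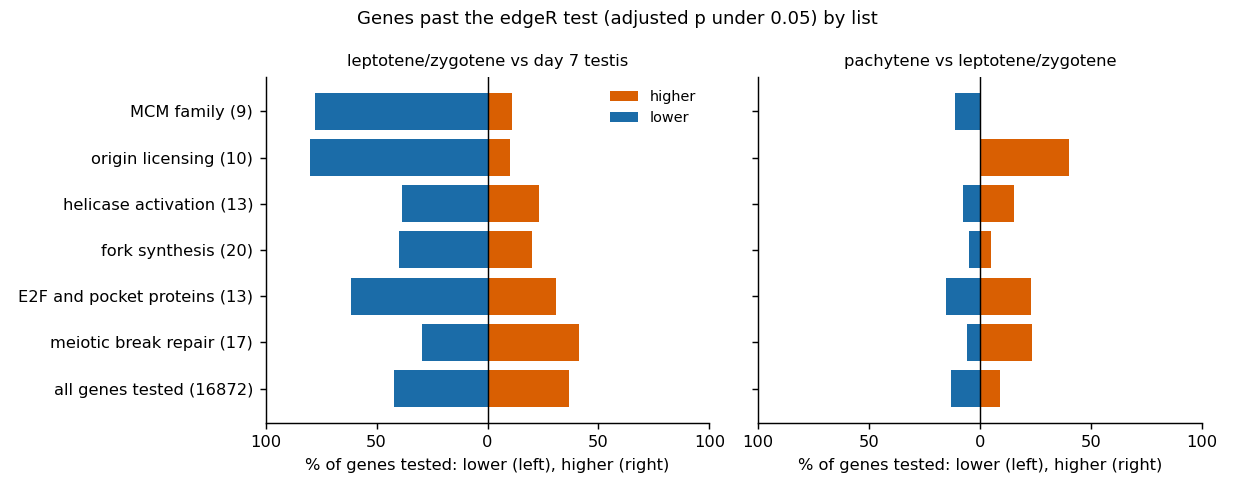
Percent of the genes tested in each list (number in brackets) and of all genes tested that passed edgeR's test as higher (right of zero) or lower (left of zero), in leptotene/zygotene over day 7 testis (left panel) and in pachytene over leptotene/zygotene (right panel). Origin licensing has 8 of 10 genes lower on the left and 4 of 10 higher on the right, beside 42.0% and 9.03% of all genes.

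The rise of Mcm7 counts was looked at beside the genes that share its locus. Mcm7 on chromosome 5 contains Mir25, Mir93 and Mir106b and overlaps the end of Ap4m1, an adaptor complex gene, by 91 bases in RefSeq GRCm38.p6. Whether the counting used strand is not given in the sources used here, so reads of such overlaps cannot be told apart. Ap4m1 was at 35.5 and 73.1 CPM in leptotene/zygotene, against 16.7 and 15.4 CPM at day 7 (log2 fold change 1.78 ± 0.38; adjusted p = 0.0016). It was thus high in the same library as Mcm7, and its change was 1.13 without that library and 0.36 (adjusted p = 0.335) with plain library sizes. Ap4m1 counts were 73 and 730 in leptotene/zygotene, beside 282 and 2687 for Mcm7. The 3 miRNA rows of the RNA table held 0 to 9 counts per library. Mcm9 on chromosome 10 overlaps Asf1a, a histone chaperone gene, by 12265 bases. Asf1a was at 48.2 and 40.1 CPM in pachytene, 27.2 and 40.6 CPM in leptotene/zygotene, against 30.4 and 33.5 CPM at day 7.

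The small RNA libraries of the same stages, counted by 7-base seed, bear on the miRNAs inside Mcm7. Their mature sequences from RefSeq are given with the seed (bases 2 to 8) in capitals, because the seed is what the table counts. The 5p arms of miR-106b and miR-93 share a seed.
miR-106b-5p: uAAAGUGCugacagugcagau
miR-93-5p: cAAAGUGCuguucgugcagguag
miR-106b-3p: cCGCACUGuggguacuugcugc
miR-25-3p: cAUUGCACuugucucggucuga
The row of the shared seed AAAGUGC covers 7 miRNAs in RefSeq and that of AUUGCAC covers 6, so neither follows the Mcm7 miRNAs alone, while CGCACUG belongs to miR-106b-3p alone, as GGCGGAG does to miR-25-5p and CUGCUGA to miR-93-3p. As plain CPM of the small RNA counts, the day 1 libraries had 283 and 260.0 for miR-106b-3p, day 3 had 109 and 129, and day 7 had 186 and 169. Leptotene/zygotene had 147 and 359, and pachytene 142 and 372. These rest on 121 and 43 counts for leptotene/zygotene and 48 and 42 for pachytene. The second replicate was the higher in both spermatocyte stages, and the stages overlapped. The miR-25-5p row was at 23.2 and 16.7 for leptotene/zygotene and 17.7 and 26.6 for pachytene, against 64.8 and 58.1 at day 7. The miR-93-3p row was at 3.66 and 16.7 for leptotene/zygotene and 5.91 and 26.6 for pachytene, against 27.4 and 26.5 at day 7. Both rows were lower in leptotene/zygotene than at day 7, on 2 to 19 counts per spermatocyte library. The AAAGUGC row was at a plain CPM of 2280.4 and 2472 for leptotene/zygotene and 3330.0 and 3452 for pachytene, against 2884 and 3206 at day 7. The AUUGCAC row was at 21962 and 67242 for leptotene/zygotene and 35601 and 81794 for pachytene, against 21752 and 18191 at day 7, again with the second replicate the higher in spermatocytes. Small RNA totals were 112967 to 820461 counts in the 4 spermatocyte libraries, and these levels are a description with no test.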

How the data were processed

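Gene counts and small RNA seed counts were used as the authors deposited them, as raw counts per library in a table per assay. TRIzol extraction and TruSeq library kits are named per the labels' protocols. The submitters' processing notes list HTSeq 0.6.1, edgeR 3.6.8, BWA 0.7.8, Bowtie 0.12.7 and the mm9 build; the role of each tool and the use of strand in counting are not given in these sources. The 5 HTSeq summary rows (44.7% to 64.5% of reads) were kept out.

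All 10 RNA libraries were fitted together in edgeR 4.0.16 (R 4.3.3): filterByExpr with a minimum count of 10, TMM, quasi-likelihood F test, two-sided, Benjamini-Hochberg adjustment over 16872 genes at 0.05, and 5 residual degrees of freedom. Standard errors were derived from the fold change and its F statistic. The labels call the replicates biological but do not say which animals were pooled, so p-values measure the spread between these samples. On simulated counts (16872 genes), known changes were planted in a subset of genes, all drawn from those with higher mean counts. For day 7 over day 1, leptotene/zygotene over day 7 and pachytene over leptotene/zygotene, 90%, 91% and 81% of 4-fold changes were recovered. Of 2-fold changes, 11%, 9% and 11% were recovered in the same order. Recovery at low counts was not measured. All other genes were kept equal between the stages compared. Recovery where most genes shift, as in the comparisons of spermatocytes with testis, was therefore not measured either. All replicate pairs differed by more than sampling noise.

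The alternatives comprised DESeq2 1.42.0, other size factors, no filter, fewer stages in the fit, the replicate number as a block, and each library left out; a lone library left in a stage was assumed to vary like the others. The members, gene lists and tests were chosen with earlier results of these data known. Named were all members, up to 4 genes per list with the largest change past the test in each spermatocyte comparison, a set of 8 further genes, and the genes most correlated with the family, over genes with a mean of at least 10 CPM (Mcm2 to Mcm7) or 1 CPM (the others). Ap4m1 and Asf1a were chosen for their overlap, and Orc1, Tex11, Brca1, Rpa1, Rfc1, Rfc2, Pold3, E2f4, E2f5, E2f8 and the rises of Orc5 and Rbl2 as few exceptions in a list, after their values were seen.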

Additional observations from a re-analysis of the deposited data

How the results depend on the processing

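The number of members past the test was 8, 1 and 7 for leptotene/zygotene over day 7, pachytene over leptotene/zygotene and pachytene over day 7. It was 7, 3 and 9 in DESeq2, and 6 to 8, 0 to 3 and 7 to 9 with each library left out. For pachytene over leptotene/zygotene it was also 3 with plain library sizes and 0 with no filter or with only these 2 stages fitted. It was 4 when those were fitted with a replicate block (added after the data were seen), beside 6927 of 13609 genes. For day 7 over day 1 it was 0, and 1 in DESeq2, 7 with only these 2 stages, 4 with the testis stages only (added after the data were seen), and 0 to 1 with each library left out. The 0 of 9 for day 3 over day 1 and for day 7 over day 3 held in every alternative.

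Directions that turned were those of changes that had not passed, apart from Mcm7, Orc5, E2f5, E2f8 and E2f4. Mcm7 in leptotene/zygotene over day 7 was -0.32 with plain library sizes. Over day 7, Mcm9 in leptotene/zygotene was 0.29 with median-ratio factors, 0.27 in DESeq2, 0.11 with only these 2 stages, and -0.36 to 0.16 with each library left out. In pachytene over day 7, Mcm7 was -0.22 and Mcm9 -0.15 with plain library sizes. Mcm9 on day 7 over day 1 was -0.021 to 0.076 with each library left out. In pachytene over leptotene/zygotene, Mcm4 was -0.022 with median-ratio factors and -0.029 in DESeq2, and with plain library sizes Mcm5 was 0.29 and Mcm7 0.096. With each library left out there, Mcm2 was -0.89 to 0.79, Mcm4 -0.89 to 0.66, Mcm6 -0.26 to 1.03 and Mcm7 -0.90 to 0.090. With plain library sizes, the change in leptotene/zygotene over day 7 was -0.74 for Orc5, -0.13 for E2f5, -0.39 for E2f8 and -0.70 for E2f4. The cause of these changes was not tested.

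The replicate block left the member counts at 8, 1 and 7 and turned Mcm4 in pachytene over leptotene/zygotene to -0.029. In the fit of these 2 stages alone with the block, Mcm2 was -0.0056 and Mcm4 -0.049. Nothing says that the numbers pair the samples: replicate differences correlated at 0.640 between leptotene/zygotene and pachytene over 16872 genes, a hint from the data and not from the design, and at -0.108 to 0.018 between the other stages.

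Over all genes, 567 passed for day 7 over day 1, against 1521 in DESeq2, 6800 with only these 2 stages, 2962 with the testis stages only, and 0 to 1143 with each library left out. For day 7 over day 3, 252 passed, against 965 in DESeq2, 2126 with the testis stages only, and 0 to 632 with each library left out. For pachytene over leptotene/zygotene, 3744 passed, against 930 to 6927 over the other settings. Depth limits leptotene/zygotene replicate 1 most: 3 counts were 1.46 CPM there, against 0.0999 to 0.610 CPM in the other 9 libraries, and Mcm2 had 18 counts.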
